A study of Mus musculus with 36 samples.

Results

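10 genes of iron handling (Tfrc, Tfr2, Trf, Hamp, Hfe, Slc40a1, Fth1, Ftl1, Bmp6 and Id1) were followed in mouse liver RNA, out of the 24421 genes counted in each of 36 libraries. They were chosen by symbol, with the levels of these libraries over the 4 groups already known. Their levels and fold changes are therefore given as a description, with no p-value. Tests are given for the other genes of the pathway and for relations between mice within a group, but the lists of those genes were also written with earlier results of these libraries known, so their p-values are not free of that choice.

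All mice were male C57BL/6J, bought at 7 weeks of age and fed for 12 weeks on a CDAHFD, a high-fat diet that lacks choline and holds amino acids in place of protein and that brings fat and scar tissue to the liver. In the first experiment the mice then received an HFD, a high-fat diet, for 2 weeks with a weekly subcutaneous injection of either 4.3 mg/kg Fc (10 mice) or 5 mg/kg Fc(mML1)B3 (10 mice). In the second experiment the mice were moved to a standard diet for 10 days, with the same doses on days 1, 4 and 7 (9 mice with Fc and 7 with Fc(mML1)B3). Fc(mML1)B3 is a human Fc fragment with a Met-binding peptide grafted into a loop, which activates Met, the receptor of hepatocyte growth factor, and Fc is the same fragment without the peptide. Diet, number of doses, days of treatment and experiment change together and cannot be told apart. No group was fed without the CDAHFD, so no level below is that of an untreated healthy liver.

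Iron travels in blood bound to transferrin, and cells take it up through the transferrin receptor, store it in ferritin and, in a few cell types, release it through ferroportin. Hepcidin, a peptide hormone made by hepatocytes, binds ferroportin and causes its breakdown, so that less iron enters the blood. Hepatocytes set hepcidin through BMP ligands and SMAD proteins, with help from HFE and transferrin receptor 2, and through cytokine signals that reach STAT3. Inside the cell, iron regulatory proteins bind stem-loops in messenger RNAs when iron is scarce, which protects the receptor's message and blocks translation of the ferritins and ferroportin.

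The stem-loops of the members, called iron-responsive elements, are shown here because they mark genes that iron can control after transcription, a layer that RNA counts see only in part. They were found by script in the untranslated regions of GENCODE M21 on GRCm38, the build of the counted annotation (mm10). The search asked for an unpaired C, 5 bases, a loop CAGTGN in which N was A, C or T, and then 5 bases that pair with the first 5, with G and T counted as a pair. The loop is in capitals and each line is 27 bases, 5′ to 3′ on the strand of the gene.
Fth1, 5′ UTR, chr19:9982733-9982759 (+): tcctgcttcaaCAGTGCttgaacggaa
Ftl1, 5′ UTR, chr7:45459780-45459806 (-): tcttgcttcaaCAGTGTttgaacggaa
Slc40a1, 5′ UTR, chr1:45925466-45925492 (-): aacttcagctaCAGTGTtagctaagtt
Tfrc, 3′ UTR, chr16:32631220-32631246 (+): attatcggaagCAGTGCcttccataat
Tfrc, 3′ UTR, chr16:32631599-32631625 (+): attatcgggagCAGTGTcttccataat
Tfrc, 3′ UTR, chr16:32631664-32631690 (+): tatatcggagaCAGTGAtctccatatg
Tfrc, 3′ UTR, chr16:32631711-32631737 (+): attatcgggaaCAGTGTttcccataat

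The search found 1 such element in the 5′ UTR of each ferritin gene and of Slc40a1, and 4 in the 3′ UTR of Tfrc. The UTRs of the other 6 members held no match. Over all coding genes, a match was present in the 5′ UTR of 21 of 20824 genes (0.101%) and in the 3′ UTR of 97 of 20903 genes (0.464%).

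The promoter of Hamp is shown with that of Hamp2, a neighbouring near-identical gene, because their levels differed. The windows come from RefSeq on GRCm38.p6, and GGCGCC, a sequence known to bind SMAD proteins, and TTCNNNGAA, a form bound by STAT proteins, were searched on both strands. Capitals mark both motifs in Hamp and the same positions in Hamp2, where the first stretch is not GGCGCC.
Hamp, chr7:30944089-30944158 (-): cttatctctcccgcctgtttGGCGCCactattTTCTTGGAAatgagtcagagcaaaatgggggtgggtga
Hamp2, chr7:30924238-30924307 (-): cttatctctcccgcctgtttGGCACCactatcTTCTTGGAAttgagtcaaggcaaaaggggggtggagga

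In Hamp, GGCGCC began at -109 and TTCNNNGAA at -97 from the annotated start. The 70-base windows differed at 8 positions, one of which was G4A within the first motif, counted from 1 at the first base of GGCGCC with the Hamp base first. The promoter window of Hamp2, from 250 bases before to 50 after the start, held no GGCGCC and had TTCNNNGAA at -94. Over all 32851 promoters of the same length, 11.9% held GGCGCC, 8.3% held TTCNNNGAA and 0.645% held both. Of the members, 7 of the 10 had a promoter in the table, Trf, Slc40a1 and Id1 being those without, and a match outside Hamp was found only in Tfrc, with GGCGCC at -89 in 1 of its 2 promoters. A match is a description of letters and not of binding.

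Library totals were 14949035 to 28466853 counts, with a median of 23558194.5. Levels are CPM, counts set relative to the library total and scaled by TMM, a factor that corrects for differences in RNA composition, and a fold change is Fc(mML1)B3 over Fc unless another order is given. Each mouse gave 1 library, and counting error is part of the spread between mice. At these totals Bmp6, the lowest member, rested on 58 to 170 reads a library. Liver identity was plain in every library, as the 8 hepatocyte markers, led by albumin, summed to 76391 CPM or more. In bulk tissue, fewer cells of a type and less RNA per cell cannot be told apart.

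Compared per kilobase of annotated exon, transferrin was the highest member in every group and Bmp6 the lowest. In the Fc mice of the HFD experiment the mean levels were 8718 CPM per kb for Trf, 3025 for Ftl1, 2006 for Hamp, 1227 for Fth1, 75.7 for Tfr2, 39.3 for Slc40a1, 27.1 for Hfe, 14.1 for Id1, 5.76 for Tfrc and 2.15 for Bmp6. The order was the same in the Fc mice of the standard diet experiment. With Fc(mML1)B3, neighbours changed place. Under the standard diet, Tfrc stood at 12.0 ± 2.03 CPM per kb (SD, n = 7) and Id1 at 10.1 ± 3.24, and under the HFD Hamp stood at 2931 ± 1069 (SD, n = 10) and Ftl1 at 2613 ± 487, in both cases within 1 SD of each other.

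**Figure D1:**
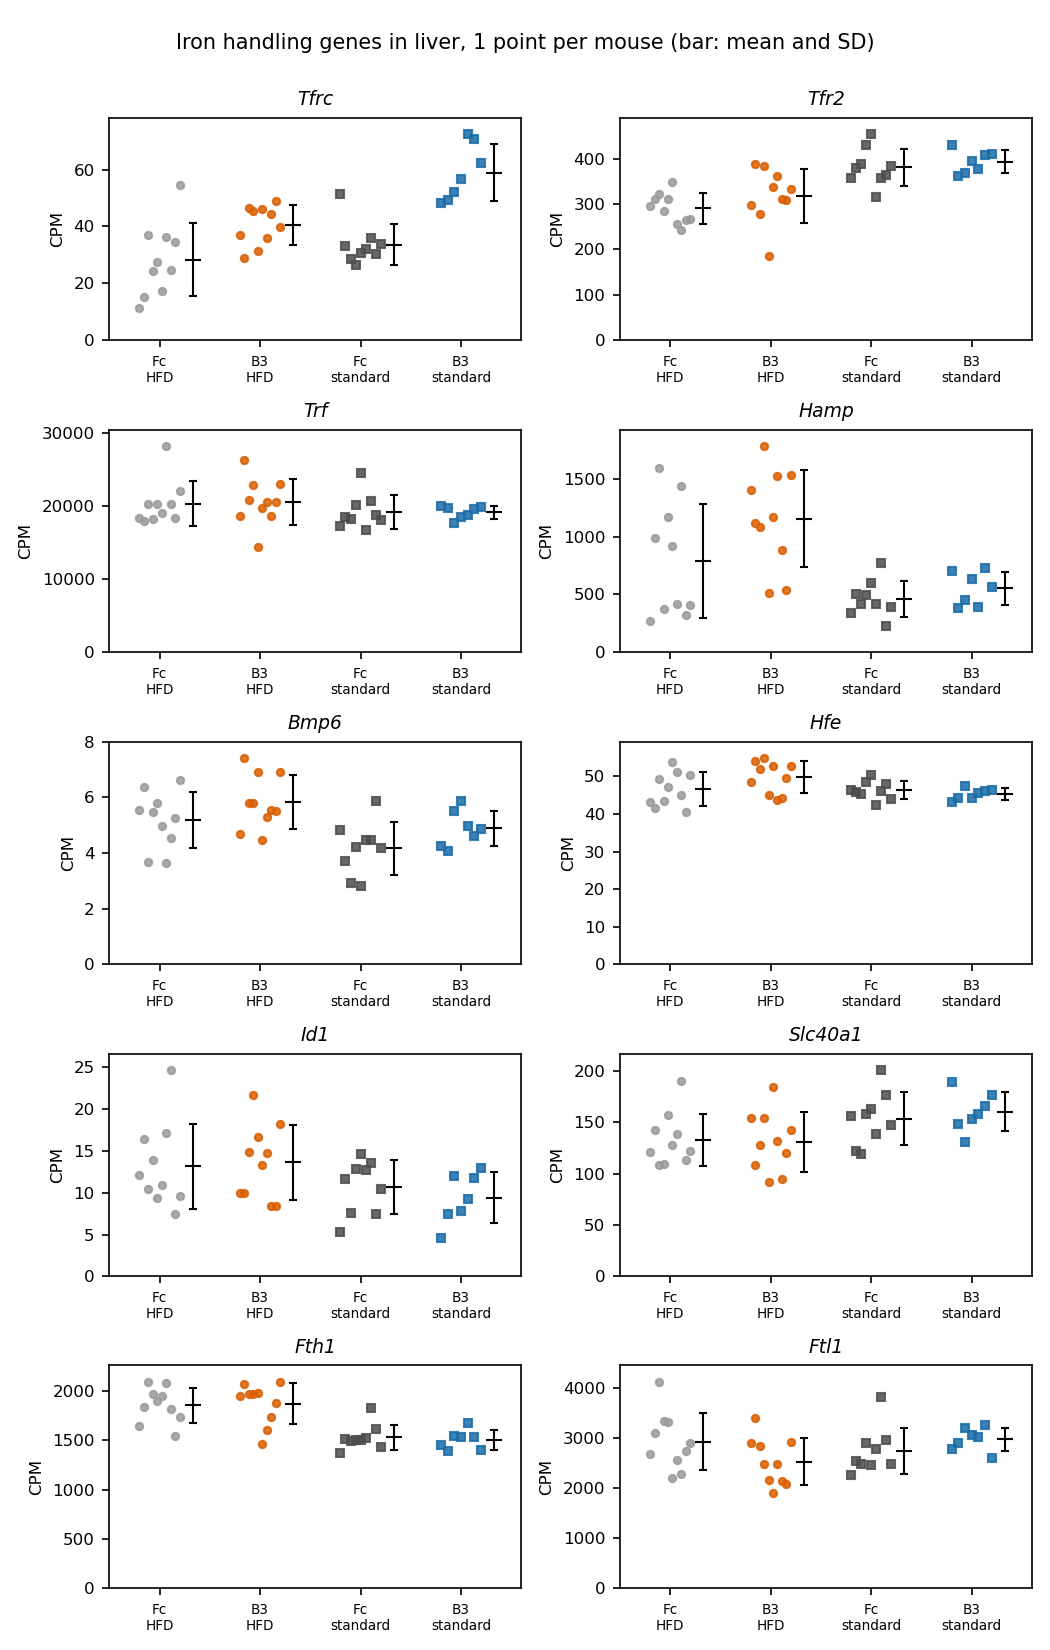
Levels of the 10 genes in CPM (linear axes from 0), with 1 point per mouse for Fc and for Fc(mML1)B3, written B3, under the HFD (10 and 10 mice) and the standard diet (9 and 7 mice), and the mean and SD as bars. Tfrc had its highest mean, 58.9 CPM, in the Fc(mML1)B3 mice of the standard diet experiment, while Hamp and Fth1 were lower in both standard diet groups than in the HFD groups.

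Tfrc encodes transferrin receptor 1, the main entry route for transferrin-bound iron (mm10 chromosome 16, 32608896 to 32632794). Its level in the HFD experiment was 11.4 CPM in the lowest, 26.1 in the median and 54.7 in the highest Fc mouse, and 28.8, 42.0 and 49.1 CPM in the Fc(mML1)B3 mice. All 10 Fc(mML1)B3 mice lay above the Fc median, but none lay above the highest Fc mouse. The Fc mice were the more scattered group, with a mean of 28.3 ± 12.8 CPM (SD, n = 10) against 40.5 ± 6.97 (SD, n = 10). The log2 fold change was 0.53 (SE 0.20), or 1.44-fold.

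In the standard diet experiment, Tfrc was 26.6 CPM in the lowest, 32 in the median and 51.3 in the highest Fc mouse. In the Fc(mML1)B3 mice it was 48.2, 56.8 and 72.5 CPM. All 7 Fc(mML1)B3 mice were above the Fc median and 5 of them were above every Fc mouse, so that the groups overlapped through a single Fc mouse, mouse 1. The means were 33.6 ± 7.19 CPM (SD, n = 9) with Fc and 58.9 ± 9.98 with Fc(mML1)B3 (SD, n = 7). Their log2 fold change was 0.80 (SE 0.12), or 1.75-fold. The difference between the effects in the 2 experiments was 0.29 (SE 0.26) on the log2 scale, little more than its error.

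The files' names carry more than one series of sample numbers within some groups, so Tfrc was also compared within these. The HFD log2 fold change was 0.51 with the Fc(mML1)B3 mice 1 to 4 and 0.55 with mice 5 to 10. The standard diet value was 0.83 against Fc mice 6 to 9 only. Fc mouse 10 of the HFD experiment, the highest of its group, weighed most on the HFD value, which was 0.69 without it.

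Tfr2 encodes transferrin receptor 2, which senses transferrin-bound iron on hepatocytes and feeds into the control of hepcidin (chromosome 5, 137569840 to 137588081). Its level under the HFD was 243, 290 and 348 CPM in the lowest, median and highest Fc mouse and 185, 321 and 388 CPM with Fc(mML1)B3. Under the standard diet it was 315, 380 and 454 CPM with Fc and 361, 395 and 430 CPM with Fc(mML1)B3. Treatment moved Tfr2 little, with log2 fold changes of 0.14 (SE 0.11) and 0.04 (SE 0.06), whereas 8 of 9 Fc mice and 4 of 7 Fc(mML1)B3 mice on the standard diet lay above every mouse of the same treatment on the HFD.

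Trf encodes transferrin, the iron carrier that hepatocytes secrete (chromosome 9, 103208876 to 103230286). Under the HFD its mean was 20331 ± 3071 CPM with Fc and 20578 ± 3191 CPM with Fc(mML1)B3, and under the standard diet 19250 ± 2355 and 19208 ± 885 CPM (SD, n = 10, 10, 9 and 7). The ranges of mean ± SD of the 4 groups overlapped. The log2 fold changes with treatment were 0.03 (SE 0.12) and -0.01 (SE 0.07).

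Hamp encodes hepcidin (chromosome 7, 30942369 to 30944017). Under the HFD it was 271 CPM in the lowest, 668 in the median and 1595 in the highest Fc mouse, and 514, 1140 and 1783 CPM with Fc(mML1)B3. The Fc mice fell into a lower set of 5 at 271, 326, 374, 410 and 415 CPM and a higher set of 5 at 921, 992, 1166, 1434 and 1595 CPM. Of the Fc(mML1)B3 mice, 8 of 10 lay above the Fc median, 1 lay above every Fc mouse, and the groups overlapped over most of their range. The log2 fold change was 0.56 (SE 0.32), and was 0.79 with Fc(mML1)B3 mice 1 to 4 only and 0.38 with mice 5 to 10 only.

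On the standard diet, Hamp was 227, 419 and 768 CPM in the lowest, median and highest Fc mouse and 379, 566 and 730 CPM with Fc(mML1)B3. The log2 fold change with treatment was 0.25 (SE 0.19), and was 0.16 without Fc mouse 8 and 0.12 with the replicate block. Hamp was lower on the standard diet than on the HFD, with a log2 fold change, standard diet over HFD, of -0.77 (SE 0.28) with Fc and -1.07 (SE 0.31) with Fc(mML1)B3. With Fc, 8 of the 9 mice on the standard diet lay below the median of those on the HFD and 1 lay below the lowest, and with Fc(mML1)B3 these counts were 7 and 3 of 7.

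Hamp2, the neighbouring copy, was looked at after its values had been seen. On the HFD its mean was 38.4 ± 19.9 CPM with Fc and 30.6 ± 7.63 with Fc(mML1)B3 (SD, n = 10 and 10), and on the standard diet 42.5 ± 18.9 and 47.3 ± 18.9 CPM (SD, n = 9 and 7). Per kilobase, Hamp2 stood at 69.9 to 108 CPM on average in the 4 groups and Hamp at 1174 to 2931. Reads that align equally well to both genes were not counted by the authors, so the level of each is uncertain where their exons are identical. The log2 fold changes of Hamp2 with treatment were -0.32 (SE 0.24) under the HFD, where that of Hamp was 0.56, and 0.15 (SE 0.27) under the standard diet, where that of Hamp was 0.25. Between the diets they were 0.14 (SE 0.26) in Fc mice and 0.63 (SE 0.28) in Fc(mML1)B3 mice, beside -0.77 and -1.07 for Hamp.

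**Figure D2:**
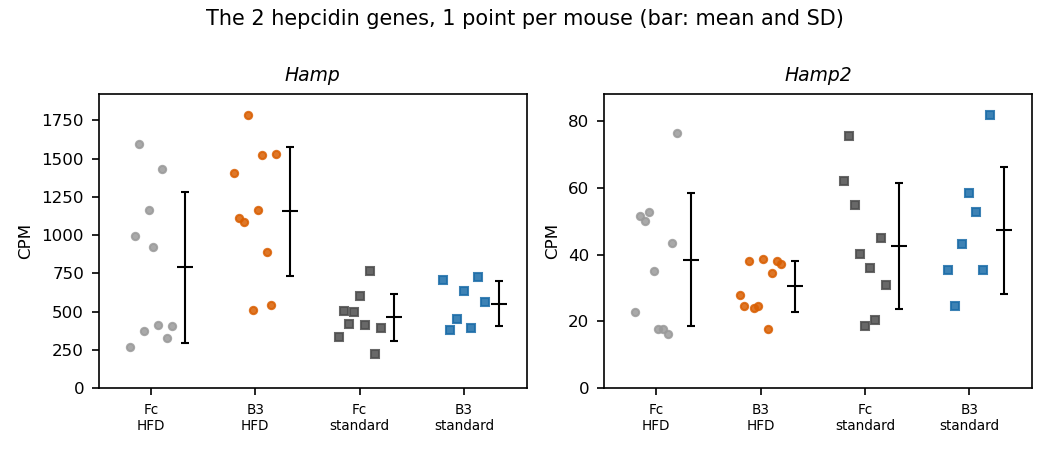
Levels of Hamp and Hamp2 in CPM (linear axes from 0), 1 point per mouse, with the mean and SD as bars; B3 stands for Fc(mML1)B3. The mean of Hamp went from 790 CPM in the Fc mice on the HFD to 463 CPM on the standard diet, while that of Hamp2 was 38.4 and 42.5 CPM.

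Bmp6 encodes the ligand, made mainly by sinusoidal endothelial cells, that drives hepcidin when iron stores are high (chromosome 13, 38345716 to 38499728). It was 3.63, 5.36 and 6.62 CPM in the lowest, median and highest Fc mouse under the HFD and 4.45, 5.66 and 7.41 CPM with Fc(mML1)B3. On the standard diet the values were 2.82, 4.23 and 5.88 CPM with Fc and 4.07, 4.87 and 5.86 CPM with Fc(mML1)B3. The treatment log2 fold changes, 0.18 (SE 0.12) and 0.22 (SE 0.13), were positive in both experiments, though the second was 0.03 against Fc mice 6 to 9 only and 0.32 with the replicate block. Of the treated mice, 3 of 10 under the HFD and none of 7 under the standard diet passed the highest Fc mouse.

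Hfe encodes an MHC-like protein that binds transferrin receptor 1 and is needed for normal hepcidin output (chromosome 13, 23703841 to 23710811). It varied little between mice of a group, at 46.6 ± 4.50, 49.8 ± 4.22, 46.3 ± 2.44 and 45.3 ± 1.5 CPM (first the HFD, then the standard diet, with Fc before Fc(mML1)B3 in each). Its treatment log2 fold changes were 0.11 (SE 0.07) and -0.04 (SE 0.04).

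Id1, an inhibitor of helix-loop-helix transcription factors, is a direct SMAD target often read as a sign of BMP signalling (chromosome 2, 152736251 to 152737410). Its level was 7.42, 11.5 and 24.7 CPM in the lowest, median and highest Fc mouse under the HFD and 8.37, 14 and 21.7 CPM with Fc(mML1)B3. On the standard diet the values were 5.30, 11.7 and 14.7 CPM with Fc and 4.55, 9.26 and 13 CPM with Fc(mML1)B3. The groups overlapped almost fully within each diet, with log2 fold changes of 0.06 (SE 0.20) and -0.19 (SE 0.21). The first was -0.03 without Fc(mML1)B3 mouse 4 and 0.21 without Fc mouse 8, and the second was -0.07 without Fc(mML1)B3 mouse 1.

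Slc40a1 encodes ferroportin, the iron exporter that is abundant on macrophages and present on hepatocytes (chromosome 1, 45908070 to 45925594). Its means with Fc and with Fc(mML1)B3 were 39.3 ± 7.47 and 38.7 ± 8.52 CPM per kb on the HFD, and 45.4 ± 7.67 and 47.4 ± 5.70 CPM per kb on the standard diet (SD, n = 10, 10, 9 and 7). The treatment log2 fold changes were -0.01 (SE 0.12) and 0.06 (SE 0.10). The summed level of the 10 Kupffer cell and macrophage markers went the other way between the diets, at 618 to 1565 CPM in Fc mice on the HFD and 464 to 821 CPM in those on the standard diet, and its part in the Slc40a1 level was not tested.

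Fth1 and Ftl1 encode the heavy and light chains of ferritin, the first of which oxidises iron and the second of which helps to form the mineral core (chromosome 19, 9980600 to 9985111, and chromosome 7, 45457944 to 45459886). Fth1 was 1540, 1864 and 2085 CPM in the lowest, median and highest Fc mouse under the HFD and 1462, 1954 and 2089 CPM with Fc(mML1)B3. On the standard diet it was 1366, 1500 and 1824 CPM with Fc and 1390, 1534 and 1670 CPM with Fc(mML1)B3. Treatment left the groups overlapping in both experiments, with log2 fold changes of 0.02 (SE 0.09) and -0.03 (SE 0.06), whereas 7 of 9 Fc mice and 3 of 7 Fc(mML1)B3 mice on the standard diet lay below every mouse of the same treatment on the HFD. The diet log2 fold change of Fth1 was -0.28 (SE 0.07) in Fc mice and -0.31 (SE 0.07) in Fc(mML1)B3 mice.

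Ftl1 was less regular. Its means with Fc and with Fc(mML1)B3 were 2934 ± 572 and 2534 ± 472 CPM under the HFD, and 2752 ± 463 and 2980 ± 236 CPM under the standard diet. The log2 fold change with treatment was -0.20 (SE 0.12) under the HFD, where 4 of 10 treated mice lay below every Fc mouse, and 0.11 (SE 0.09) under the standard diet, where all 7 treated mice lay above the Fc median. Its sign turned between the series of sample numbers, with -0.35 for Fc(mML1)B3 mice 5 to 10 and 0.02 for mice 1 to 4 on the HFD, and -0.02 against Fc mice 6 to 9 on the standard diet. Ferritin genes have processed copies elsewhere in the genome, and since reads with several alignments were not counted, the ferritin levels are uncertain to that extent. None of the 10 members shares exons with another annotated gene.

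Under the HFD, edgeR called 14.8% of 13299 genes at an adjusted p below 0.05 (8.14% higher and 6.68% lower), and 0 of the 10 members. At an unadjusted p below 0.05 the count was 1, and DESeq2 called 0 after adjustment. On removal of Fc mouse 10 the count was also 1, which was Tfrc. In the standard diet experiment, 16.1% of 13570 genes were called (8.56% higher and 7.55% lower), and 1 of the 10 members, Tfrc, which was higher. The median over the members on the log2 scale was 0.08 (HFD) and 0.05 (standard diet), against -0.01 and -0.011 over all genes. Since the members were chosen with these contrasts known, nothing is read from their counts.

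Between the diets, 47.9% of 14105 genes were called in the Fc mice and 38.5% in the Fc(mML1)B3 mice. Of the members, 4 were called in the Fc mice (Tfr2 higher, and Hamp, Fth1 and Bmp6 lower on the standard diet) and 4 in the Fc(mML1)B3 mice (Tfrc and Tfr2 higher, Hamp and Fth1 lower). DESeq2 called 4 and 6. Nothing is read from these counts either. The interaction of diet and treatment was called for 9.06% of genes and for 0 of the 10 members (1 at an unadjusted p below 0.05, 0 with DESeq2).

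**Figure D3:**
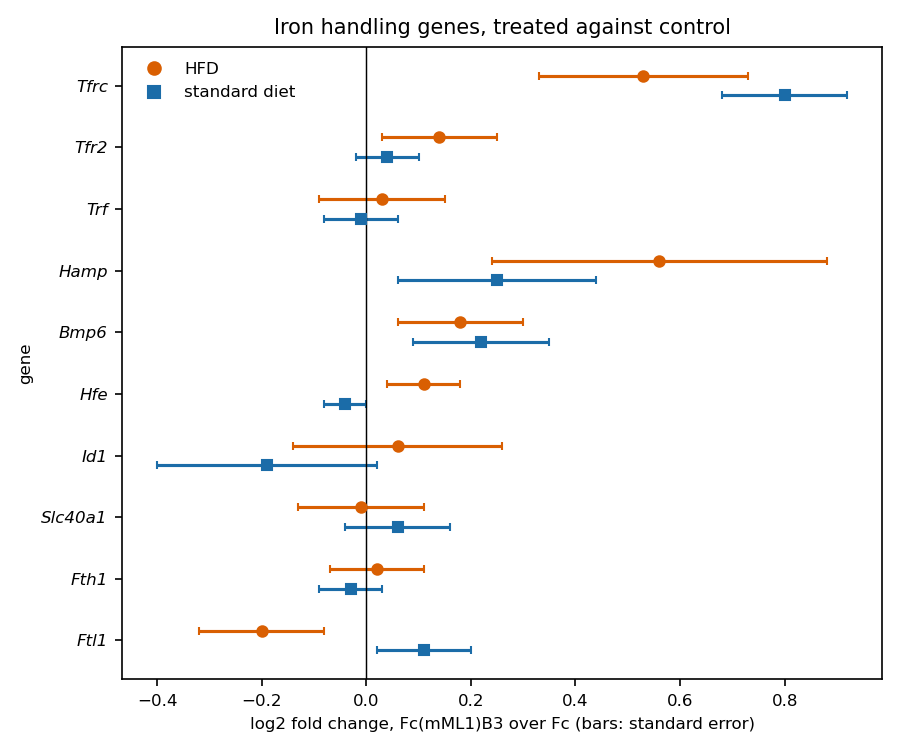
Log2 fold change of each of the 10 genes, Fc(mML1)B3 over Fc, under the HFD (circles) and the standard diet (squares), with bars for the standard error. Tfrc lies to the right of 0 in both experiments, at 0.53 and 0.80, and Slc40a1, Fth1 and Trf lie within 1 standard error of 0.

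The other genes of the pathway were taken from 6 lists written from textbook knowledge, with 61 genes in all, of which 53 passed the filter on low counts in the HFD experiment and 55 in the other. Under the HFD 5 of 53 were higher and 1 was lower with Fc(mML1)B3 (11.3%), with a median log2 fold change of 0.01. In the other experiment 3 of 55 were higher and 4 were lower (12.7%), with a median of -0.05. Over all genes the shares were 14.8% and 16.1%, and the difference was not tested. With 1 mouse left out, 4 to 8 list genes were called under the HFD and 7 to 9 in the other experiment. Aco1 was the only list gene called in both comparisons, and its call was lost in 3 of 7 alternatives other than leaving out 1 mouse under the HFD and in 2 of 6 under the standard diet. For these calls and the adjusted p-values below, the quasi-likelihood test of edgeR was adjusted over all genes tested by Benjamini and Hochberg's method.

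Aco1 encodes iron regulatory protein 1, which binds the stem-loops shown above when it lacks its iron-sulphur cluster. It rose from 217 ± 29.4 to 261 ± 25.9 CPM under the HFD (SD, n = 10 and 10; log2 fold change 0.28, SE 0.08, adjusted p = 0.0235). After the standard diet it rose from 259 ± 14.5 to 299 ± 17.5 CPM (SD, n = 9 and 7; log2 fold change 0.20, SE 0.05, adjusted p = 0.0042). The HFD call was lost with the replicate block and with either series of Fc(mML1)B3 mice (1 to 4 or 5 to 10), and the standard diet call in 1 fit of all 36 libraries and against Fc mice 6 to 9. Ireb2, which encodes iron regulatory protein 2, had log2 fold changes of -0.27 (SE 0.11, adjusted p = 0.0873) and 0.01 (SE 0.06, adjusted p = 0.96).

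Among the 13 genes of iron uptake and export, 2 of 11 tested were called under the HFD and 2 of 12 under the standard diet. Slc11a2, the divalent metal transporter DMT1 that moves iron out of the endosome, rose from 30.1 ± 4.64 to 38.9 ± 5.96 CPM under the HFD (log2 fold change 0.38, SE 0.10, adjusted p = 0.00846) and was 42.8 ± 3.63 and 41.4 ± 2.64 CPM under the standard diet (adjusted p = 0.595). Its HFD call was lost with Fc(mML1)B3 mice 1 to 4 only. Steap3, the ferrireductase that acts before DMT1, fell from 25.3 ± 2.41 to 19.2 ± 2.23 CPM under the standard diet (log2 fold change -0.40, SE 0.07, adjusted p = 9.88e-04), and was 0.19 (SE 0.08, adjusted p = 0.109) under the HFD, where it was called higher in 1 of 7 alternatives. Slc39a8, the metal transporter ZIP8, also fell under the standard diet, from 31.2 ± 1.68 to 23.6 ± 2.50 CPM (log2 fold change -0.40, SE 0.06, adjusted p = 9.17e-05), with a log2 fold change of 0.03 under the HFD (adjusted p = 0.829). Steap2, another metalloreductase, fell under the HFD (log2 fold change -0.29, SE 0.10, adjusted p = 0.0448), a call lost on removal of 1 mouse in 15 of 20 cases.

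Of the 11 genes of iron storage and the iron regulatory proteins, Aco1 and Ncoa4 rose under the HFD and Aco1, Slc25a37 and Slc25a28 rose under the standard diet, of 10 tested each time. Ncoa4 encodes the receptor that delivers ferritin to the lysosome (log2 fold change 0.37, SE 0.12, adjusted p = 0.0462 under the HFD), a call lost in 12 of the 20. Slc25a37 and Slc25a28 encode mitoferrin 1 and 2, which carry iron into mitochondria. Slc25a37 rose from 51.6 ± 5.69 to 72.0 ± 8.17 CPM under the standard diet (log2 fold change 0.48, SE 0.07, adjusted p = 1.82e-04), and Slc25a28 from 17 ± 1.52 to 20.2 ± 1.79 CPM (log2 fold change 0.25, SE 0.07, adjusted p = 0.0134). The call of Slc25a28 was lost in 3 of 6 alternatives, the replicate block, 1 fit of all 36 libraries and Fc mice 6 to 9 only.

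None of the 12 tested genes that carry the BMP signal to hepcidin was called by edgeR in either experiment, nor by DESeq2, and 0 had an unadjusted p below 0.05. This list holds the receptors, the SMAD proteins, the hepcidin suppressor Tmprss6 and hemojuvelin, which the files name Hfe2. At an adjusted p of 0.198 and 0.974, Hfe2 had log2 fold changes of 0.16 (SE 0.08) and 0.01 (SE 0.08), and those of Tmprss6 were 0.18 (SE 0.11, adjusted p = 0.279) and 0.05 (SE 0.05, adjusted p = 0.501). Of the 7 BMP and SMAD target genes, Id3 rose under the HFD from 54.3 ± 10.0 to 85.2 ± 25.6 CPM (log2 fold change 0.66, SE 0.14, adjusted p = 0.00227). Atoh8, a transcription factor that follows iron through BMP signals, fell under the standard diet from 18.7 ± 3.10 to 11.9 ± 3.43 CPM (log2 fold change -0.64, SE 0.15, adjusted p = 0.00618), a call lost against Fc mice 6 to 9 only. Id1, the member of the same class, stood at 0.06 and -0.19 in these comparisons.

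Of the 8 genes through which cytokines reach hepcidin, 1 was called in each experiment among 7 tested. Il22ra1, a subunit of the interleukin 22 receptor, rose under the HFD from 5.09 ± 1.12 to 8.94 ± 3.08 CPM (log2 fold change 0.83, SE 0.17, adjusted p = 0.00139). Inhbb, a subunit of activin B, fell under the standard diet from 2.59 ± 0.729 to 1.31 ± 0.328 CPM (log2 fold change -0.98, SE 0.19, adjusted p = 0.00168), a call also lost against Fc mice 6 to 9 only. Il6 had at most 4 reads in any library and was not tested. In the list of heme and haemoglobin recovery edgeR called 0 of 6 genes on the HFD and 0 of 7 on the standard diet, with 2 and 2 at an unadjusted p below 0.05 and 0 and 1 called by DESeq2. Steap1 (at most 8 reads a library) and Ftmt (0 reads) were below the filter in both experiments, Ltf and Cd163 under the HFD, and Flvcr1 and Flvcr2 were not analysed here.

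The hepcidin pathway was also compared between the diets. Of its 12 BMP and SMAD genes 11 were called in the Fc mice (7 higher and 4 lower on the standard diet) and 8 in the Fc(mML1)B3 mice (6 higher and 2 lower), against 47.9% and 38.5% of all genes. The following genes were picked after their values had been seen. Hfe2, the hemojuvelin gene which encodes a BMP co-receptor, was 103 ± 15 CPM in the Fc mice on the HFD (SD, n = 10) and 73.5 ± 6.52 CPM on the standard diet (SD, n = 9; log2 fold change -0.49, SE 0.08, adjusted p = 6.59e-06). Tmprss6, which encodes a protease that cuts hemojuvelin, was 318 ± 51.2 and 449 ± 27.1 CPM (log2 fold change 0.50, SE 0.09, adjusted p = 2.24e-05). In the Fc(mML1)B3 mice the same differences were -0.62 (SE 0.09, adjusted p = 6.28e-07) for Hfe2 and 0.39 (SE 0.10, adjusted p = 0.00146) for Tmprss6. Genes of the list went both ways, and their part in the Hamp level was not tested.

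Bmp2, the other BMP ligand of the liver endothelium, was lower on the standard diet in the Fc mice (log2 fold change -0.38, SE 0.09, adjusted p = 8.75e-04), as was Bmp4 (-0.57, SE 0.15, adjusted p = 0.00231). Smad5 (0.48, SE 0.07, adjusted p = 2.44e-07) and the co-receptor Neo1 (0.39, SE 0.10, adjusted p = 0.00111) were higher. Of the 7 SMAD target genes, 1 (14.3%, against 47.9% of all genes) was called in the Fc mice, Smad6 (-0.41, SE 0.13, adjusted p = 0.00947). In the Fc(mML1)B3 mice 4 (57.1%, against 38.5% of all genes) were called, all lower, among them Id3 (-0.90, SE 0.17, adjusted p = 8.64e-05). Ireb2 was higher on the standard diet in both, by 0.48 (SE 0.09, adjusted p = 5.42e-05) and 0.77 (SE 0.10, adjusted p = 7.38e-08) on the log2 scale.

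Of the 7 tested cytokine genes of hepcidin control, 5 (71.4%) were called between the diets in the Fc mice, against 47.9% of all genes. On the standard diet 4 were higher and 1 was lower, with a median log2 fold change of 0.41. Those higher were Il6st, the shared receptor subunit gp130 (0.64, SE 0.07, adjusted p = 7.88e-09), Il22ra1 (0.79, SE 0.16, adjusted p = 1.16e-04), Il6ra (0.44, SE 0.18, adjusted p = 0.0395) and Stat3 (0.28, SE 0.11, adjusted p = 0.0253), and Inhbb was lower (-0.46, SE 0.18, adjusted p = 0.0363). In the Fc(mML1)B3 mice 2 were called, Il6st higher (0.51, SE 0.08, adjusted p = 2.63e-06) and Inhbb lower (-1.06, SE 0.21, adjusted p = 1.07e-04), with a median of 0.04. Those 2 were 28.6% of the 7, against 38.5% of all genes. The difference of these shares from those of all genes was not tested. All 9 Fc and all 7 Fc(mML1)B3 mice on the standard diet were above every mouse of the same treatment on the HFD for Il6st.

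**Figure D4:**
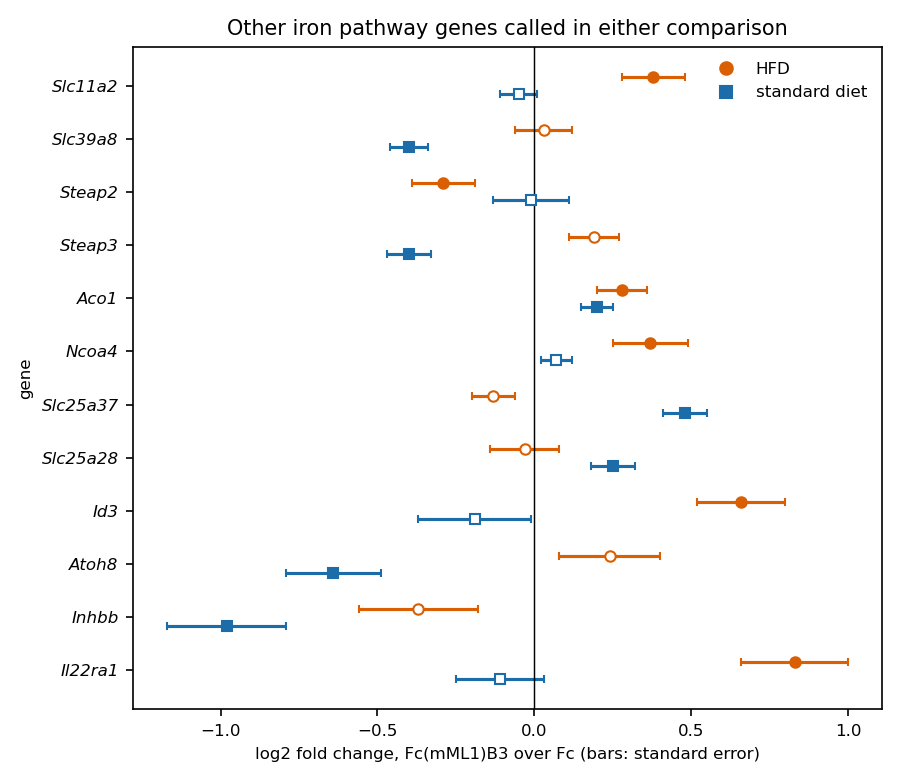
Log2 fold change, Fc(mML1)B3 over Fc, of the 12 iron pathway genes called in either experiment, under the HFD (circles) and the standard diet (squares), with bars for the standard error and filled symbols for an adjusted p below 0.05. Aco1 is filled on the same side in both, while Steap3, Slc39a8 and Atoh8 are filled to the left only under the standard diet and Id3, Il22ra1 and Slc11a2 to the right only under the HFD.

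Marker genes of cells that are known to carry much Tfrc, dividing cells and red cell precursors, are given beside its values. Of the 8 proliferation markers edgeR and DESeq2 called 0 under the HFD (2 at an unadjusted p below 0.05), and Mki67 was lower under the standard diet (log2 fold change -0.43, SE 0.14, adjusted p = 0.0466). On the standard diet 7 of the 8 had a log2 fold change below 0, 3 had an unadjusted p below 0.05, and DESeq2 called 2 where edgeR called Mki67 alone. Their summed level was 64.4 to 81.9 CPM in the Fc mice and 53.5 to 73.0 CPM with Fc(mML1)B3 on the standard diet, and 69.0 to 120 and 63.4 to 89.0 CPM under the HFD. The 10 erythroid markers summed to at most 170 CPM with Fc (mean 153 ± 12.6) and 174 CPM with Fc(mML1)B3 (mean 160 ± 11.7) on the standard diet, and to 48.7 to 123 and 62.1 to 130 CPM under the HFD, nearly all of it Alas2. Of 3 erythroid markers tested, 0 were called by edgeR or DESeq2 under the standard diet or had an unadjusted p below 0.05, and Klf1 was lower under the HFD (log2 fold change -0.66, SE 0.20, adjusted p = 0.0296). The 4 globin genes of that list stood at 0 reads in every library, but each shares exons with an overlapping annotation, so that the 0 is no measure of globin RNA, and Gata1 had at most 2 reads.

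Markers of other cell types moved with treatment in places, and their part in the iron gene levels was not tested. The neutrophil list had 3 of 4 tested genes lower under the HFD, led by S100a8 (log2 fold change -1.46, SE 0.40, adjusted p = 0.0166), with a summed level of 13.3 to 67.9 CPM with Fc and 11.3 to 20.5 CPM with Fc(mML1)B3. On the standard diet the stellate cell markers Des and Pdgfrb were lower (2 of 8; summed level 442 to 682 CPM with Fc and 381 to 515 CPM with Fc(mML1)B3), as was the macrophage marker Gpnmb (1 of 10). Under the HFD 0 of the 10 macrophage markers were called by edgeR, with 5 at an unadjusted p below 0.05 and 1 called by DESeq2. Of these markers 8 of 10 had a log2 fold change below 0 (median -0.33), and their summed level was 618 to 1565 CPM with Fc and 616 to 1155 CPM with Fc(mML1)B3. Of the 8 markers of sinusoidal endothelial cells, a source of Bmp6, 0 were called by edgeR or DESeq2 in either experiment, with 3 at an unadjusted p below 0.05 on the HFD and 0 on the standard diet. Of the hepatocyte markers 1 of 8 was called higher in each experiment, Hnf4a and Cps1, while 7 (HFD, median 0.17) and 6 (standard diet, median 0.03) had a log2 fold change above 0.

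The circadian clock genes were called widely with treatment. Under the HFD 9 of 9 tested clock genes were called, 4 higher and 5 lower, with Arntl at a log2 fold change of 3.98 (SE 0.29, adjusted p = 1.08e-08) and Dbp at -3.31 (SE 0.33, adjusted p = 5.38e-07). In the other experiment 8 of 10 were called, with Arntl at -1.05 (SE 0.27, adjusted p = 0.0108) and Per2 at 1.18 (SE 0.13, adjusted p = 3.70e-06). The hour at which livers were taken is not given in the sources used here.

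Tfrc and Hamp were set beside Arntl and Dbp from mouse to mouse within each group, a comparison added after the values had been seen. Pearson's r of Tfrc with Dbp was below 0 in each group, at -0.66 and -0.67 on the HFD (Fc and Fc(mML1)B3, 10 mice each) and -0.62 and -0.91 on the standard diet (9 and 7 mice). The permutation p-values, exact for the standard diet groups, were 0.0372, 0.0366, 0.104 and 0.00774. After adjustment over the 16 relations they were 0.174, 0.174, 0.308 and 0.124, and 0 of the 16 passed. Spearman's rho was -0.66, -0.60, -0.13 and -0.86 (permutation p = 0.0436, 0.0744, 0.744 and 0.0238, with adjusted values from 0.256 to 0.895). Without the 2 mice farthest from the median of Dbp, r was -0.40, -0.49, 0.04 and -0.84, so that the relation in the Fc mice on the standard diet rested on those mice. In the Fc(mML1)B3 mice on the standard diet, Dbp spanned 55.2 to 113 CPM, and the 3 mice with the least Dbp were the 3 with the most Tfrc. These were mice 5, 6 and 7, and Dbp fell at each step from mouse 1 to mouse 7. In the Fc(mML1)B3 mice on the HFD, Dbp was 24.8 CPM in mouse 1 and 3.56 CPM in mouse 10. In the Fc mice on the standard diet it instead rose up to mouse 7. The permutation p-values take the mice of a group as interchangeable, and a part of the mouse number in these relations was not tested. Tfrc and Arntl had r between 0.08 and 0.79, and Hamp had r between -0.47 and 0.32 with either clock gene, with adjusted p-values of 0.174 or more. With treatment, Dbp itself had a log2 fold change of -3.31 on the HFD and 0.14 (SE 0.17, adjusted p = 0.625) on the standard diet, where those of Tfrc were 0.53 and 0.80. Dbp does not stand for the clock on the standard diet, since 8 of 10 clock genes were called there. For Clock, Cry1, Per2, Nr1d1 and Tef the treated and the Fc mice did not overlap on that diet. Whether the clock had a part in the Tfrc difference between treatments was not tested.

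Within a group, all mice share diet and treatment, so relations between members there do not rest on the group levels by which they were chosen. Pearson's r and Spearman's rho of log2(CPM + 1) were computed for 5 pairs in each of the 4 groups, with permutation p-values adjusted over the 20 relations. The 2 ferritin chains moved together in the Fc mice of the standard diet experiment (r = 0.94, exact permutation p = 3.91e-04, adjusted p = 0.00783; rho = 0.88, exact p = 0.00308, adjusted p = 0.0607; 9 mice). This relation rests in part on mouse 7, highest for both chains, and r was 0.69 without the 2 mice farthest from the median of Fth1. In the other groups r was 0.29 (Fc, HFD), 0.67 (Fc(mML1)B3, HFD) and 0.63 (Fc(mML1)B3, standard diet), with adjusted permutation p-values of 0.763, 0.221 and 0.521.

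No other relation passed the adjustment. Hamp and Id1, both targets of BMP signals, had r = 0.73 in the Fc mice of the standard diet experiment (exact permutation p = 0.0227, adjusted p = 0.221; rho = 0.85, exact p = 0.00607, adjusted p = 0.0607) and r = 0.28, 0.42 and -0.16 in the other groups (Fc, HFD; Fc(mML1)B3, HFD; Fc(mML1)B3, standard diet). Without the 2 mice farthest from the median of Hamp, r of Hamp and Id1 was 0.81 in the first of these groups and 0.08, 0.77 and -0.50 in the others. Hamp and Bmp6, the ligand that induces it, had r between -0.55 and 0.06, and between -0.65 and 0.21 without 2 mice chosen in the same way. Tfrc and Hamp had r of 0.00, 0.04, -0.11 and 0.06 (HFD, then standard diet, with Fc before Fc(mML1)B3 in each). Without the 2 mice farthest from the median of Tfrc these were -0.24, -0.60, 0.50 and 0.21, so that they depended on few mice. Groups of 7 to 10 mice leave wide errors on each of these values.

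**Figure D5:**
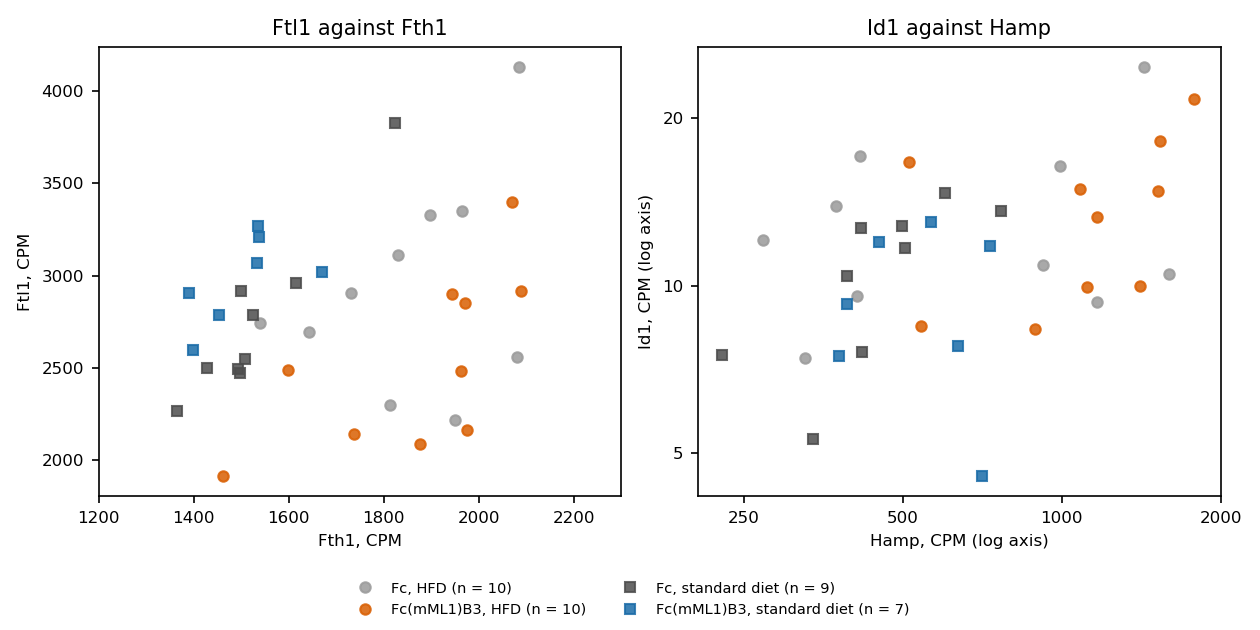
Left, Ftl1 against Fth1 in CPM on linear axes that do not start at 0; right, Id1 against Hamp in CPM on log axes, with 1 point per mouse and the 4 groups by colour and shape. The Fc mice on the standard diet (dark squares) rise along a line in the left panel, where r was 0.94, and the Fc(mML1)B3 mice on the standard diet do not follow one in the right panel, where r was -0.16.

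After removal of the group means, the genes most like Tfrc over the 36 mice, of 14105 compared, were Tuba1c (r = 0.76), Insc (0.67), Mis12 (0.67), Idh3a (0.66) and Arf4 (0.66). Those most like Hamp were Serpina1e (r = 0.75), Emc6 (0.75), Minpp1 (0.71), Cfi (0.70) and Gc (0.70). Among the members, the values nearest to Hamp were those of Tfr2 (r = 0.47) and Slc40a1 (0.47), and no member passed an r of 0.24 with Tfrc. These are the extremes of many comparisons in libraries that share composition and depth, and are given as a description.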

How the data were processed

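Liver RNA of 36 mice was sequenced, 1 library per mouse, and groups and mouse numbers were taken from the sample titles. The authors deposited counts, whole numbers of reads per gene, made by trimming with Fastp, removal of ribosomal RNA with Bowtie2 2.4.5, alignment to mm10 with STAR 2.7.10a and counting with featureCounts of Subread 2.0.3. They kept pairs with both ends aligned, counted each end as a read, and left out reads with several alignments. Strand was ignored, so a gene and an overlapping antisense gene cannot be told apart. Library totals were 14949035 to 28466853.

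From the deposited counts, each diet was fitted on its own in edgeR 4.0.16 (R 4.3.3) by quasi-likelihood, after TMM scaling and filterByExpr, with Benjamini-Hochberg adjustment over all genes tested at 0.05. The diet contrasts and the interaction came from 1 fit of all 36 libraries. An SE is the size of a log2 fold change over the root of its F statistic. The p-values of the fits set a difference between groups against the spread between mice. They cannot separate treatment from anything else that the mice of a group share. CPM were scaled by TMM. The fits were also run on simulated counts with known changes in well-counted genes and the same dispersion for every gene. That run checks the code of the fits and not how well the calls hold in these data.

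Members and lists were chosen with earlier results of these data known, and the lists were written from textbook knowledge. Named genes are the 10 members, the list genes called in either treatment comparison (at most 10 each, by p), the 5 genes most like Tfrc and Hamp, and list or marker genes given as examples. Alternatives were RLE size factors, DESeq2 1.42.0, no filter, the study's thresholds, a replicate block, 1 fit of all libraries, libraries of 1 series of sample numbers and each library left out. No 2 libraries of a group were duplicates (chi-square per degree of freedom at least 6.3).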

Additional observations from a re-analysis of the deposited data

Results flagged for a closer look

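Of the 40 groupings of a member's levels by group, 4 had a mouse that stood apart by Dixon's test, where chance gives about 1 in 20. Tfrc in mouse 1 of the Fc group under the standard diet was 51.3 CPM, next to 35.9 CPM in the second highest mouse. Trf was 28255 CPM in Fc mouse 7 under the HFD (next highest 22114) and 24622 CPM in Fc mouse 5 under the standard diet (next highest 20680). Ftl1 was 3827 CPM in Fc mouse 7 under the standard diet (next highest 2962), the mouse that was also highest for Fth1. Each lay in an Fc group.

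For 7 of the 12 pathway genes called in a treatment comparison, the treatment effect was unequal in the 2 experiments by the interaction term of edgeR over all 36 libraries. The log2 difference, standard diet minus HFD, was -0.57 for Steap3 (adjusted p = 5.75e-04), 0.62 for Slc25a37 (adjusted p = 1.39e-04), -0.42 for Slc11a2 (adjusted p = 0.0226) and -0.42 for Slc39a8 (adjusted p = 0.0144). It was -0.93 for Il22ra1 (adjusted p = 0.00752), -0.84 for Id3 (adjusted p = 0.0178) and -0.86 for Atoh8 (adjusted p = 0.0132). Of all 55 pathway list genes tested, 8 were called for the interaction (14.5%), against 9.06% of all genes. The 12 genes were picked by their treatment calls, 11 of them in 1 experiment alone, a choice that favours a difference between the experiments. Diet, dosing, days and experiment cannot be told apart in these differences.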

How the results depend on the processing

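Under the HFD the count of all genes called went from 1972 to 178 at the study's thresholds (adjusted p below 0.1 and fold above 2), 3133 in 1 fit of all libraries and 705 with Fc(mML1)B3 mice 1 to 4 only. Under the standard diet it went from 2186 to 320 (fold above 1.5), 785 in 1 fit and 942 with Fc mice 6 to 9 only. Pathway list genes called went from 6 to 0 at the HFD thresholds and to 2 with mice 1 to 4, and from 7 to 2 at the standard diet thresholds and to 3 with Fc mice 6 to 9. The last limits have fewer samples or a stricter threshold by construction, while for the single fit the cause was not tested. Members called under the HFD were 1 in place of 0 in the single fit, which was Tfrc.

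With each mouse left out in turn, the HFD experiment gave 1555 to 2848 genes, 0 to 1 members and 4 to 8 list genes, and the standard diet experiment 1730 to 2230 genes, 1 member each time and 7 to 9 list genes. Tfrc stayed between 0.43 and 0.69 under the HFD and between 0.75 and 0.90 under the standard diet. The call of Steap2 was lost in 15 of these 20 HFD settings and that of Ncoa4 in 12. Alternatives were computed for the 10 members and the 12 list genes called with treatment, and no called direction among these changed. Other named genes were not recomputed.

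The mouse numbers do not pair the mice. Same-numbered mice had a median correlation of deviations of -0.05 (HFD) and -0.08 (standard diet), and 1 of 10 and 0 of 7 mice were best matched by their own number. With a replicate block, 1263 genes (HFD) and 1237 (standard diet) were called, and under the HFD 1 member, Tfrc.

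Members with few reads, such as Bmp6, carry more counting error than Trf, and reads shared between Hamp and Hamp2 or with ferritin copies are missing from the counts.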

Other observations

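Alas2, the first enzyme of heme synthesis in red cell precursors, was looked at after its values had been seen. It is the one marker or pathway gene outside the members whose UTR matched the strict search for iron-responsive elements (1 match in its 5′ UTR). A gene without a match, such as Slc11a2, may still hold such an element. The level of Alas2 was 88.4 ± 21.1 and 102 ± 19.9 CPM on the HFD with Fc and with Fc(mML1)B3 (SD, n = 10 and 10) and 149 ± 12.6 and 155 ± 11.6 CPM under the standard diet (SD, n = 9 and 7). It was higher on the standard diet in the Fc mice (log2 fold change 0.75, SE 0.12, adjusted p = 3.43e-06 from edgeR) and in the Fc(mML1)B3 mice (0.61, SE 0.13, adjusted p = 2.25e-04), and was not called with treatment (adjusted p = 0.325 and 0.529). Lcn2, whose product binds iron-loaded siderophores and rises in acute-phase responses, was also picked after its values had been seen. It was lower on the standard diet in the Fc mice (log2 fold change -2.04, SE 0.42, adjusted p = 1.48e-04) and in the Fc(mML1)B3 mice (-1.76, SE 0.46, adjusted p = 0.00246), with wide scatter between mice (256 ± 217 CPM in the Fc mice on the HFD).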
